A study of Drosophila melanogaster with 3 samples.

Results

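The 10 genes described here encode the core of Notch signalling in the fly: the receptor (N), its ligands (Dl and Ser), the protease and ubiquitin ligases that act on receptor and ligand (kuz, neur and mib1) and the nuclear factors that read the signal (Su(H), mam, H and gro). They were taken by name from 13945 protein-coding genes on the main chromosome arms, and every entry of the deposited dm6 peak lists was collected whose summit lay in the gene body or within 5 kb of it. No value measured in the libraries enters this rule, but the genes were chosen with earlier results of these data known. All 10 genes were found in the release 6 annotation, where Dl stands under the symbol Delta.

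When a ligand on a neighbouring cell engages the receptor, Notch is cleaved, its intracellular part enters the nucleus, and it joins Su(H) and Mastermind to activate target genes. Without the signal, Su(H) is held in a repressor complex by Hairless, which recruits Groucho. Deadpan, which dpn encodes, belongs to the Hes repressors, a family of basic helix-loop-helix proteins that also recruit Groucho, and it acts in neuroblasts, the neural stem cells of the fly.

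Chromatin immunoprecipitation with sequencing (ChIP-seq) was performed with an antibody against GFP on whole embryos of mixed sex, aged 0 to 24 hours, of the line dpn-MiMIC-GFP. In this line an eGFP exon in an intron of dpn makes a Deadpan fusion protein (dpn is also what the labels enter as the antibody). All 3 libraries are biological replicates of this 1 group, all carry the fusion, and no library without it and no input library is analysed here. Each replicate and the pooled replicates are represented by a list of 30000 ranked regions without read counts, so the depth is unknown. The authors' list thresholded by the irreproducible discovery rate (IDR), a measure of rank agreement between replicates, holds the 5164 strongest entries of the pooled list. These are called IDR entries below. Rank 1 is the strongest entry of a list, and ranks count within a list only. Strong occupancy in a few cells and weak occupancy in many cells cannot be told apart in whole embryos.

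An IDR summit lay within 1000 bp of an own start site in 6 of the 10 genes (N, Su(H), gro, mam, kuz and neur). The background was 27.9% of all protein-coding genes (3891 of 13945). With the gene body and 5 kb on either side, 7 of the 10 genes had an IDR summit, the addition being mib1. Here the background was 54.2% of all protein-coding genes, 70.2% of those of 10 kb or longer and 51.6% of shorter ones. Dl, Ser and H had none in either window. The 10 regions together held 20 IDR entries, and for 10 of them the nearest start site belonged to a neighbouring gene.

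The sequences around 6 summits are printed here because these entries are the ones the results on single genes turn on. They are both entries of gro, both of N, the promoter entry of Su(H) and the strongest entry of neur. Each runs 50 bp to either side of the pooled summit, read from the RefSeq release 6 genome on the strand of the gene, and exon bases were left out (17 bases of Su(H)). Capitals mark the hexamer TATCGA in the intronic window of N and both copies of an exact direct repeat in its promoter window. In the other windows nothing is capitalised.
gro, intron, rank 135, chr3R:26042466-26042566, plus strand: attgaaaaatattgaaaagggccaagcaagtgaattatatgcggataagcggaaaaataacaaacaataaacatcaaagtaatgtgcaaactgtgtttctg
gro, promoter, rank 888, chr3R:26041619-26041719, plus strand: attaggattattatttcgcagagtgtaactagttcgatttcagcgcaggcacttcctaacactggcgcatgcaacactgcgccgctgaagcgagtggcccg
N, intron, rank 365, chrX:3162500-3162600, plus strand: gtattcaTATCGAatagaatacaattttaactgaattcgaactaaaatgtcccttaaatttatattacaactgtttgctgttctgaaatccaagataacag
N, promoter, rank 2003, chrX:3134590-3134690, plus strand: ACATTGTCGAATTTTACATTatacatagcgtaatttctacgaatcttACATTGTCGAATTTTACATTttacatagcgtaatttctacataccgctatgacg
Su(H), promoter, rank 2430, chr2L:15039404-15039487, plus strand: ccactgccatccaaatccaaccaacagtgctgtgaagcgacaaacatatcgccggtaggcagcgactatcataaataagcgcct
neur, intron, rank 1108, chr3R:9031968-9032068, minus strand: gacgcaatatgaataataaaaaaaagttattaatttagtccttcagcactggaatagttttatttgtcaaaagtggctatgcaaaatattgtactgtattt

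The gene of the receptor, N (FBgn0004647, chromosome X, 3134870 to 3172221), spans 37.4 kb and has 1 annotated start site. The stronger of its 2 IDR entries did not lie at the promoter. It lay in an intron 27.68 kb downstream of the start site, at 3162385 to 3162683, with rank 365 in the pooled list and ranks 516, 658 and 199 in replicates 1, 2 and 3 (mean 458 ± 235, SD, n = 3). Replicate 3 ranked it highest. The replicate summits lay at -18, -21 and -22 bp from the pooled one, so they fell within a few bases of each other (SD 2.08 bp). The nearest start site was that of CG18508, 10.59 kb away and beyond the 3′ end of N. By distance the entry is therefore assigned to a neighbour, although it lies inside N and far from either start site.

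The promoter entry of N lay 230 bp upstream of the start site (3134432 to 3134847), with rank 2003 in the pooled list and ranks 2228, 1427 and 2339 in the replicates (mean 1998 ± 498, SD, n = 3). The replicate ranks of the intronic and the promoter entry did not overlap. The promoter window printed above contains 2 identical runs of 20 bases in direct orientation, their starts 47 bp apart. Extended to 40 bp, the copies were identical at 39 positions. Among the 5164 IDR windows of this length only 2, that of N included, held a direct repeat of at least 20 bp, and the median of the longest repeat was 6 bp. The repeat was looked for after the sequence had been seen, and its part in the rank was not tested. A further 10 pooled entries of the N region lay below the IDR threshold, the strongest at rank 5286.

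**Figure D1:**
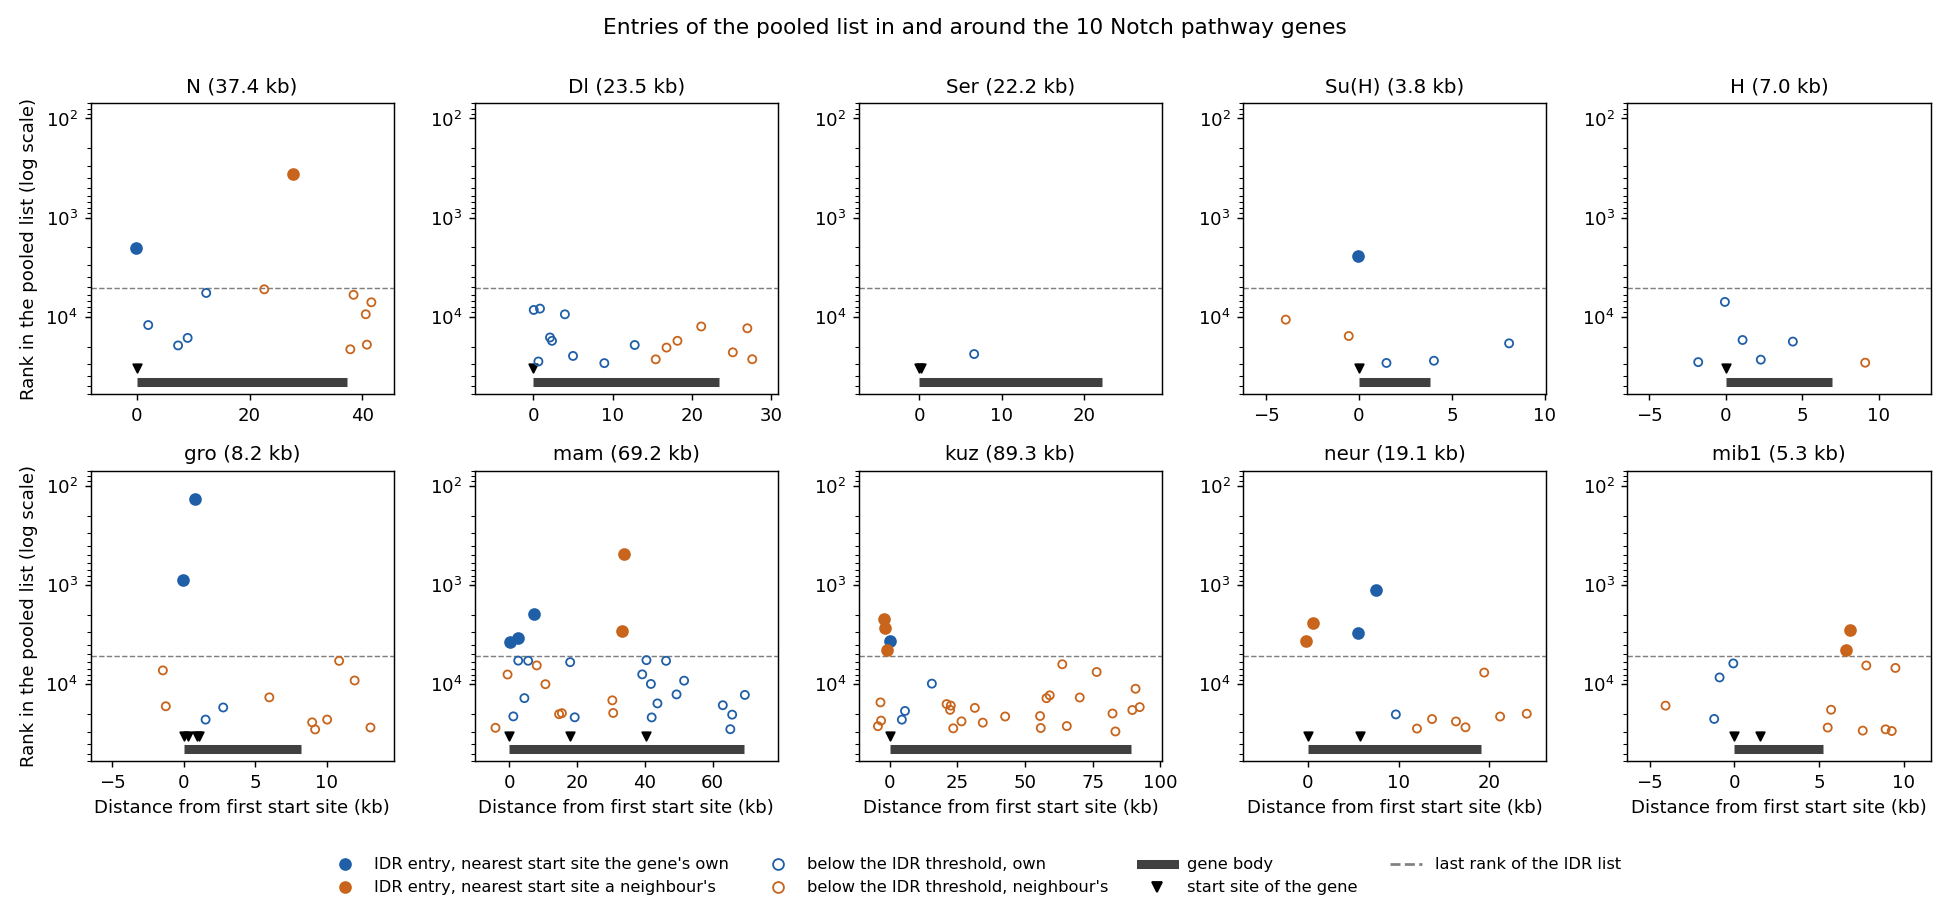
Each panel shows 1 gene with every entry of the pooled list in the gene body or within 5 kb: the horizontal axis is the distance of the summit from the first start site in kb along the gene's strand, and the vertical axis is the rank on an inverted log scale. Filled points are IDR entries and open points entries below the IDR threshold, blue where the nearest start site is the gene's own and orange where it is a neighbour's; the grey bar is the gene body, triangles are start sites and the dashed line is the last rank of the IDR list. N, gro, mam and neur have their strongest point inside the gene body, Su(H), kuz and mib1 outside it, and Ser has 1 open point.

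Both ligand genes were without an IDR entry. Dl (Delta, FBgn0000463, chromosome 3R, 19302731 to 19326217, minus strand) encodes the ligand known for lateral inhibition between neural precursors. Its region held 16 pooled entries, all below the threshold. That was 0.478 per kb, against 0.366 per kb over the 10 regions together and 0.224 per kb over the genome. The strongest lay 833 bp downstream of the start site in an intron, at rank 8275 in the pooled list and ranks 4662, 16590 and 19074 in the replicates (mean 13442 ± 7704, SD, n = 3). The next lay 46 bp downstream of the start site, at rank 8539, with ranks 4990, 24614 and 12905. Both were among the top 5164 entries in replicate 1 alone. The matches of the entry at rank 8275 in replicates 2 and 3 lay 98 and 138 bp from its summit. They were shared with a weaker pooled entry of Dl, at rank 28272. The strongest Dl entry of replicate 2 was another one, 3.999 kb downstream at rank 8608, and that of replicate 3 a further one, 8.96 kb downstream at rank 11108. The replicates therefore did not name the same strongest site at Dl.

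Ser (FBgn0004197, chromosome 3R, 27172090 to 27194267, minus strand) encodes the other Notch ligand, known for its role at the dorsoventral boundary of the wing. It was the gene with the fewest pooled entries of the 10. Its region of 32.2 kb held 1 pooled entry, at rank 23777, or 0.0311 per kb, and 2, 2 and 4 entries in replicates 1, 2 and 3. No dm6 list had an entry within 1000 bp of either start site of Ser. The strongest replicate entries lay in an intron 7.58, 7.81 and 7.72 kb downstream of the first start site, with ranks 11356, 8272 and 8551. The pooled list had no entry within 150 bp of any of these summits. The closest start site of another gene, lncRNA:CR34006, is 23917 bp from those of Ser.

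Kuzbanian, the product of kuz, is the ADAM protease that makes the ligand-dependent cleavage of Notch. Its gene (FBgn0259984, chromosome 2L, 13550139 to 13639411) spans 89.3 kb and has 1 start site. The 4 IDR entries of its region all lay at its upstream end, and 3 of them were nearest to a start site of B4, a gene on the opposite strand whose outer start site is 811 bp away. The strongest, at rank 2173, lay in an intron of B4, 425 bp upstream of an internal B4 start site and 1943 bp upstream of that of kuz. It had ranks 1935 and 1970 in replicates 1 and 3 and no entry within 150 bp in replicate 2. The other entries assigned to B4 stood at ranks 2705 and 4540. The entry at the start of kuz itself lay 90 bp downstream of it in the 5′ UTR, at rank 3671, with ranks 3010, 4044 and 4578 in the replicates (mean 3877 ± 797, SD, n = 3). Of the 31 pooled entries of the region, 22 lay in the gene body of kuz, and this was the only IDR entry among those 22.

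Neuralized, the product of neur, is a ubiquitin ligase that promotes endocytosis of Delta in the signalling cell. Its gene (FBgn0002932, chromosome 3R, 9020348 to 9039471, minus strand) had 4 IDR entries. The strongest lay in an intron 1713 bp downstream of the internal start site (9031906 to 9032135), at rank 1108, with ranks 1001, 1316 and 925 in the replicates (mean 1081 ± 207, SD, n = 3). A weaker entry at rank 3008 lay 235 bp upstream of the same start site, with ranks 3944, 2689 and 2721. The replicate ranks of these entries did not overlap. The remaining IDR entries lay at the first start site of neur, which is 295 bp from one of hyx, the gene of a Paf1 complex subunit on the opposite strand. The summit at rank 2413 fell in the 5′ UTR of hyx, 116 bp downstream of a hyx start site and 595 bp downstream of that of neur. Its ranks in the replicates were 2938, 2329 and 2599. The summit at rank 3659 lay 105 bp upstream of a hyx start site and 190 bp upstream of that of neur, with ranks 3765, 5686 and 2422. Distance alone cannot assign these summits to neur or to hyx.

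Mind bomb 1, the product of mib1, is the other ubiquitin ligase of the ligands. No pooled entry had its summit inside its gene body (FBgn0263601, chromosome 3L, 16006552 to 16011812, minus strand), and 13 lay in the flanks. Its 2 IDR entries were both at the promoter of mRpS31, a mitochondrial ribosomal protein gene whose start site is 5116 bp from the nearest one of mib1. They stood at ranks 2810 and 4504, and replicates 2 and 3 had 1 entry each that matched both (ranks 3103 and 2592). At the mib1 promoter itself, an entry 60 bp upstream of a start site stood at rank 6157, below the threshold. The strongest entries of the replicates near this start site had ranks 4976, 4008 and 9299 (mean 6094 ± 2817, SD, n = 3), within the top 5164 entries in 2 of 3 replicates. In replicate 1 a stronger entry, at rank 820 in an intron of hzg, fell at the edge of the 5 kb flank, and the IDR entry that matched it lay outside the flank.

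**Figure D2:**
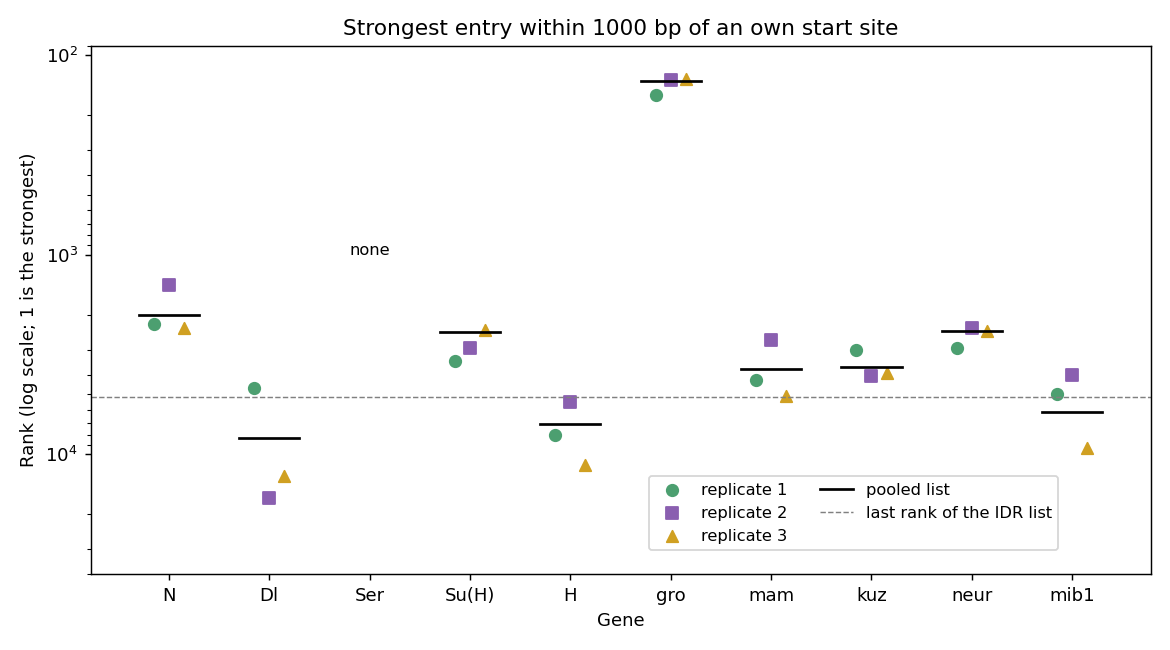
For each of the 10 genes, the strongest entry within 1000 bp of an own start site is shown by its rank (vertical axis, log scale, inverted so that stronger entries are higher) in each replicate (coloured symbols) and in the pooled list (black bar), with the last rank of the IDR list as a dashed line. The gro symbols sit between 132 and 158, those of N, Su(H), mam, kuz and neur lie between 1427 and 5139, the 3 H symbols lie below the line, Dl and mib1 have symbols on both sides of it, and Ser has none.

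The nuclear genes included the strongest of the 20 IDR entries. Su(H) encodes the DNA-binding protein of the pathway (FBgn0004837, chromosome 2L, 15039488 to 15043334). Its only IDR entry lay 34 bp upstream of its start site, at rank 2430, with ranks 3418, 2938 and 2375 in the replicates (mean 2910 ± 522, SD, n = 3). The replicate summits lay at 2, 5 and -13 bp from the pooled one. The nearest other start site, that of CIAPIN1, is 627 bp away on the opposite strand. TATCGATA, the DNA element that the promoter factor DREF binds, began 7 bp downstream of the Su(H) start site and 41 bp from the summit, in the exon and thus beyond the sequence printed.

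The gene mam encodes Mastermind, the co-activator in the complex of Notch and Su(H) (FBgn0002643, chromosome 2R, 13991203 to 14060356). With 5 IDR entries in a gene of 69.2 kb it had more than any other of the 10. All 5 lay in the gene body and 4 of them in introns. The strongest lay 33.98 kb downstream of the first start site (14024961 to 14025306), at rank 483, with ranks 558, 681 and 373 in the replicates (mean 537 ± 155, SD, n = 3). The nearest start site was that of CG18371, a gene inside mam, 3439 bp away, and the nearest start site of mam lay 6482 bp away. Another entry upstream of CG18371, at 4152 bp, had rank 2902 and ranks 4187, 1786 and 3653 in the replicates. The entries at ranks 1943 and 3407 lay 7364 and 2477 bp downstream of the first start site of mam. The entry at that start site, 109 bp downstream in the 5′ UTR, was the weakest of the 5 at rank 3761, with ranks 4252, 2671 and 5139. None of the 5 summits lay within 1000 bp of the other start sites of mam. Entries below the threshold did lie there. One stood at rank 5707, 48 bp downstream of a start site, with ranks 5142, 4944 and 12301 in the replicates. Another stood at rank 5979, 11 bp downstream, with ranks 6505, 4351 and 6931.

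Hairless, the product of H, is the adaptor that makes Su(H) a repressor. H (FBgn0001169, chromosome 3R, 20621938 to 20628915) had no IDR entry, but the pooled and the 3 replicate lists each had an entry at its promoter. It lay 39 bp upstream of the start site, at rank 7087 in the pooled list and ranks 8038, 5484 and 11297 in the replicates (mean 8273 ± 2914, SD, n = 3). None of these ranks is inside the top 5164, and replicate 2 comes nearest. With the flank widened to 10 kb, H gained an IDR entry at rank 1819, whose nearest start site, 507 bp away, was that of a neighbour, Pi3K92E.

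The gene gro encodes Groucho, the co-repressor shared by Hairless and the Hes proteins (FBgn0001139, chromosome 3R, 26041736 to 26049911). Its intronic entry at 26042358 to 26042650 was the strongest of the 20. It held rank 135 in the pooled list and ranks 158, 133 and 132 in the replicates (mean 141 ± 14.7, SD, n = 3). This was the smallest SD of rank among the 19 IDR entries matched in all replicates, but strong ranks leave little room for a large SD. Relative to the mean, the SD was smaller for kuz at rank 2705 (2829 ± 250) and mib1 at rank 2810 (2929 ± 292). The summit of the intronic gro entry lay 0.78 kb downstream of the first start site and 125 bp upstream of an internal one. The replicate summits lay at 0, -21 and 5 bp from it. The other entry lay 67 bp upstream of the first start site, at rank 888, with ranks 781, 1075 and 802 (mean 886 ± 164, SD, n = 3). The replicate ranks of the gro entries did not overlap. The closest start site of another gene, that of the Hes gene E(spl)m8-HLH, is 1496 bp away, so both entries were nearest to gro itself. Protein-coding genes were also compared by their strongest entry within 1000 bp of an own start site, which for gro is the intronic one. Similarity was taken as the mean absolute difference in log10 rank over the 3 replicates. Most similar were REPTOR (ranks 147, 127 and 135, difference 0.0204), Ptpmeg2 (164, 149 and 127, difference 0.0274) and CG31431 (141, 141 and 137, difference 0.0303).

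In the order of their strongest pooled entries, the genes were gro, N, mam, neur, kuz, Su(H), mib1, H, Dl and Ser. The ranges of the replicate ranks of neighbours in this order overlapped for N and mam, for Su(H) and mib1, and for H and Dl. Within each replicate list N still ranked above mam (516 and 558, 658 and 681, 199 and 373 in replicates 1, 2 and 3). The order of Su(H) and mib1 differed between replicates, as did that of H and Dl. The ranges did not overlap for the other neighbouring pairs, but kuz and Ser were matched in fewer than 3 replicates. The strongest entries of the replicates themselves had ranks 1935, 2850 and 1970 at kuz, overlapping 3418, 2938 and 2375 at Su(H). Those of Ser (11356, 8272 and 8551) overlapped those of Dl (4662, 8608 and 11108). Within each replicate list, however, kuz ranked above Su(H), although the kuz entry of replicate 2 matched the pooled entry at rank 2705. Dl ranked above Ser in replicate 1 and below it in replicates 2 and 3. The replicates therefore did not separate Dl from Ser. For N, mam, kuz and mib1 the strongest pooled entry was nearest to another gene's start site.

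**Figure D3:**
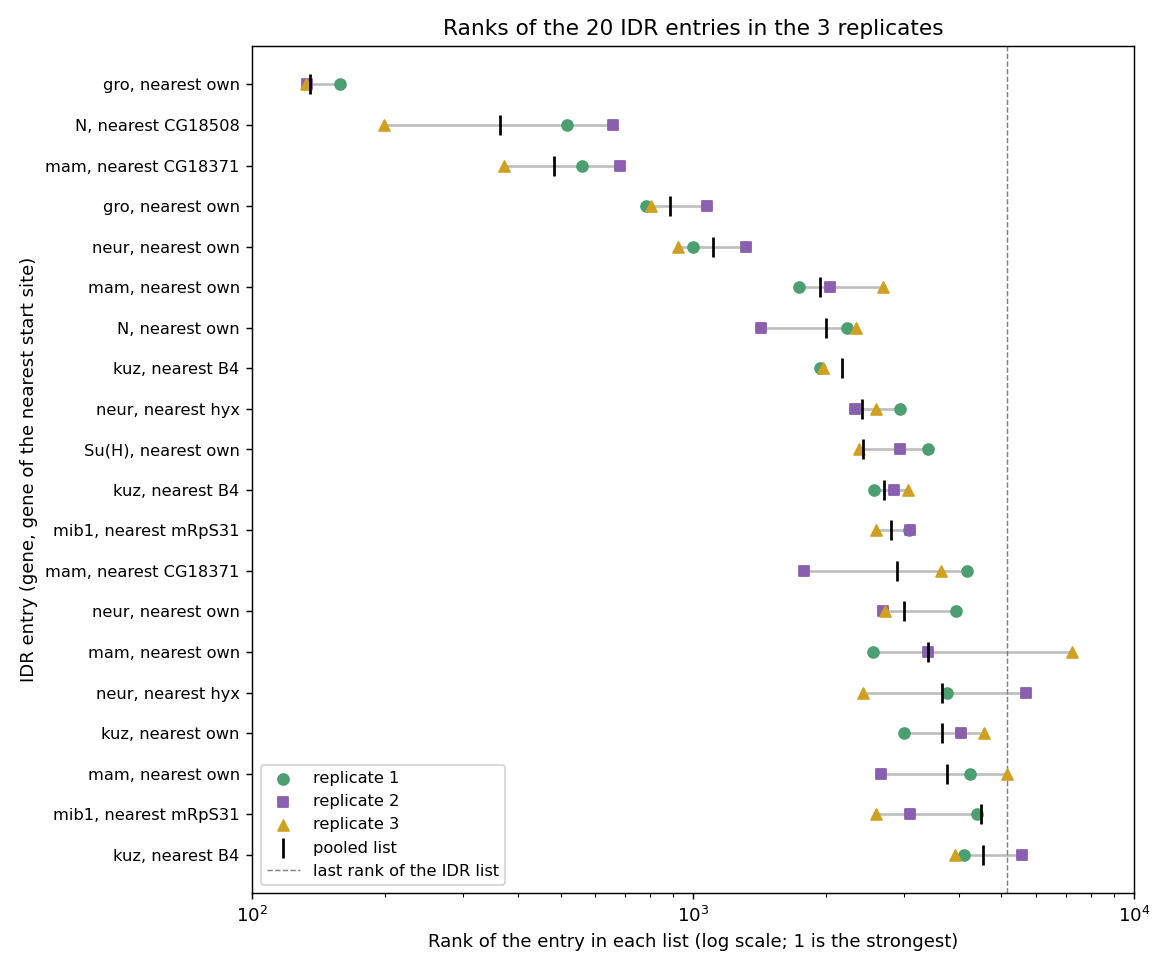
Each row is 1 of the 20 IDR entries, ordered by its rank in the pooled list and named by its gene and by the gene of the nearest start site; the horizontal axis is the rank on a log scale, coloured symbols are the replicates, black bars the pooled list and the dashed line the last rank of the IDR list. The first 5 rows lie at ranks up to 1316 in every replicate, and 3 entries have a symbol right of the dashed line, namely those of mam at 7222, of neur at 5686 and of kuz at 5580.

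Of the 20 IDR entries, 16 (80.0%) were matched within 150 bp among the top 5164 entries of all 3 replicates, against 66.9% of all IDR entries. In the full lists 19 of the 20 (95.0%) were matched in all replicates, against 96.9%. The SD of the summit position over the replicates had a median of 19.0 bp, against 21.1 bp over all IDR entries. The ratio of the SD to the mean of the ranks had a median of 0.226, against 0.268. The IDR list was built from these replicates, so these shares describe the entries and are no independent check of them.

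The positions of the 20 entries can be set beside those of the whole list, without a test. Of the 20 summits, 11 lay in introns, 5 in 5′ UTRs, 4 between genes and 0 in coding exons. Within 500 bp of any start site lay 65.0% of them, against 55.5% of all IDR entries, and more than 2000 bp away 25.0%, against 24.6%. The median distance to the nearest start site was 227 bp, against 329 bp. A neighbour's start site was nearest for 10 of the 20 entries, against 68.0% of the 14023 pairs of a protein-coding gene and an IDR entry in its body or flanks. The median rank was 2567.5, against 2582.5. The 5 strongest of the 20 entries were narrower than the fixed width of 416 bp and the other 15 had that width. Among all IDR entries up to rank 1108, 87.1% were narrower, as were 13.1% of the later ones.

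**Figure D4:**
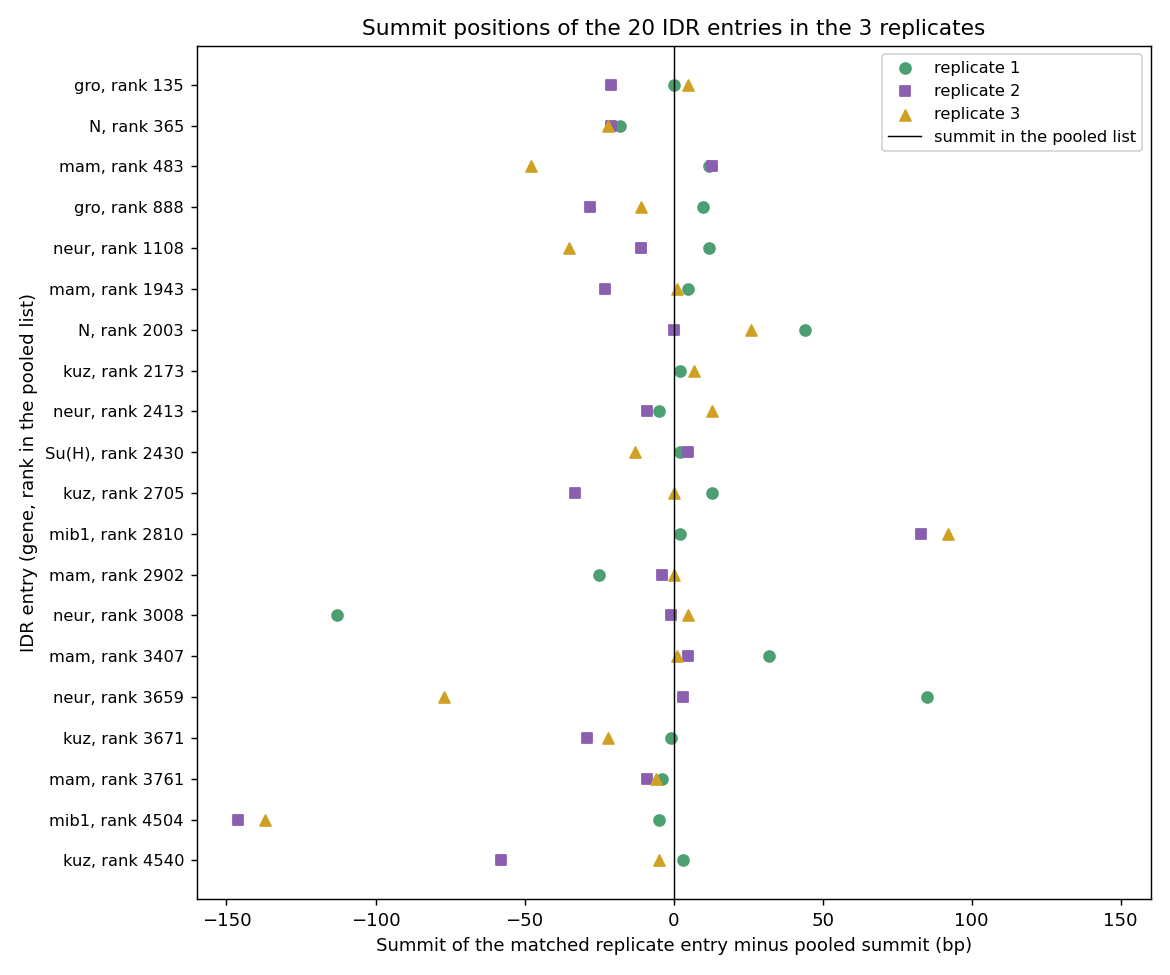
For each of the 20 IDR entries (rows, ordered by rank in the pooled list), the horizontal axis gives the summit of the matched entry of each replicate minus the pooled summit, in bp along the genome. Most symbols lie within 50 bp of the line at 0. Wider shifts are seen for neur at ranks 3008 and 3659, for kuz at rank 4540 and for both entries of mib1, which share their matches in replicates 2 and 3.

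Sites known for Hes proteins and for Su(H) were searched on both strands in the 101 bp around each of the 20 summits. The E-box CACGTG was in 0 of the 20 windows, against 0.910% of all 5164. CACGCG was in 1 of them, at the kuz start entry of rank 3671, against 1.92%. The N-box CACNAG was in 3 windows, those of kuz at ranks 2705 and 4540 and of mib1 at rank 2810, against 11.4%. The Su(H) sites GTGGGAA and GTGAGAA were in 0 windows, against 1.20% and 1.12%. CAGGTAG, a site of the early activator Zelda, and GAGAGA, a site of GAGA factor, were in 0 windows, against 0.523% and 4.40%. TATCGATA was in the window of Su(H) alone, against 3.08%. Any of these 8 motifs was in 5 of the 20 windows, against 22.3% of all. The shorter TATCGA, which is part of TATCGATA and was added after the windows were seen, was in 5 of the 20, against 10.5%. These were the windows of N at rank 365, mam at rank 1943, neur at rank 2413, Su(H) at rank 2430 and mib1 at rank 2810. None of the motifs occurred in the gro windows.

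Below the threshold the 10 regions held many more entries. The pooled list had 141 entries there, 20 of them IDR entries and 121 weaker. That was 0.366 per kb, against 0.224 per kb over the genome, and for IDR entries 0.0520 per kb, against 0.0386 per kb. The regions were drawn around genes, and the genome values include sequence far from genes. Of the 141 entries, 34.0% were matched in all 3 full replicate lists, against 35.0% of all 30000. The entries per region numbered 26, 26 and 26 in replicates 1, 2 and 3 at kuz and 17, 9 and 18 at N. A pooled entry at the start of E(spl)m8-HLH, at rank 7239, lay in the gro flank.

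The other pathway genes were taken from a list of 28, also chosen with earlier results of these data known. An IDR summit within 1000 bp of an own start site was present at 20 of them, beside the 27.9% of all protein-coding genes given above. By role these were 7 of 10 genes that process the receptor, 6 of 8 in ligand endocytosis and trafficking, 4 of 4 in receptor turnover and 3 of 6 nuclear genes. The nearest start site was the gene's own in 13 cases and a neighbour's in 7. The strongest entry belonged to Fur1, a furin protease gene, at rank 65 with ranks 55, 88 and 61 in the replicates, but Vps33B had the nearest start site. Next came l(2)gd1, whose product acts in endosomal sorting of Notch, at rank 80 (108, 65 and 78), 78 bp upstream of its own start site. AP-2alpha, the gene of a clathrin adaptor subunit, stood at rank 304 (298, 287 and 317), where ebi had the nearest start site. The gene rumi, whose product adds glucose to Notch, stood at rank 405 (490, 409 and 395) and aph-1, a gamma-secretase subunit gene, at rank 442 (445, 314 and 657). Nct, of the same complex, stood at rank 409 with its summit 994 bp upstream, nearest to CG7006. The strongest entries within 1000 bp of the Nct start site had ranks 488 and 25911 in replicates 1 and 2, and replicate 3 had none there. The replicate ranks of these pathway genes were taken within that window and not matched to the pooled summit. With the pooled Nct summit at 994 bp, a small shift would put the same entry outside the window. Its presence in replicates 2 and 3 was therefore not tested.

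Of the 10 genes, 5 had a start site of another gene within 1000 bp of an own one (Dl, Su(H), mam, kuz and neur). Among the 5 without, 2 had an IDR summit within 1000 bp (N and gro), against 15.4% of all protein-coding genes of that kind. In the replicates' own top 5164 entries, the number of the 10 genes with a summit within 1000 bp was 8, 7 and 6 in replicates 1, 2 and 3, against 28.2%, 27.0% and 27.4% of all genes. Dl was among them in replicate 1 alone and mib1 in replicates 1 and 2.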

How the data were processed

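Per the labels, ChIP-seq was done on 3 biological replicates of 1 group. Fragments were 200 to 800 bp long after sonication. The file listings that the authors deposited name a control alignment beside each replicate as parents of its peak list; aligner and caller are not given in the sources used here. The deposited signal value (column 7) was used for ranks only. The deposited −log10 q-value (column 9) was 4.05 throughout the IDR list and ranked nothing. The other deposited column used gives the summit offset. No counts are given, so no depth or counting error could be derived. The dm3 lists were not used.

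Summits were placed on Ensembl release 115 and, as an alternative, RefSeq genes, with positions counted from 1. Entries were matched at 150 bp, taking the strongest. No test was made. Members and lists were chosen with earlier results of these data known. Named are all members, genes of the nearest start sites, the 6 pathway genes with the strongest promoter entries and the 3 genes ranked most like the strongest member. Of other genes, CIAPIN1, lncRNA:CR34006, hzg, Pi3K92E, Vps33B, ebi, CG7006 and E(spl)m8-HLH were named as neighbours after their values were seen. Counting functions were tested on simulated data. Python 3.11.15, pandas 2.3.3, numpy 2.4.6 and matplotlib 3.10.9 were used.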

Additional observations from a re-analysis of the deposited data

How the results depend on the processing

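Of 81 alternative values of the counts and shares, 66 stayed within 1.5 times the main value and 15 did not. Some of the 66 are no check. RefSeq gives all 10 genes the same ends and start sites, so their number at own start sites and the entries in their regions could not differ. With replicate 1, 2 or 3 left out, the entries counted as matched (16, 19 and 17) were simply the entries kept. The number of the 10 genes with an IDR summit within 1000 bp of an own start site stayed at 6 with windows of 500, 2000 and 5000 bp, with RefSeq genes and with the nearest start site alone. The share of all protein-coding genes was 24.5%, 33.0% and 48.1% with these windows. It was 27.9% with RefSeq genes and 19.7% with the nearest start site alone. Of the 10 genes, 4 had such a summit with the stronger part of the list. Among those with no other start site within 1000 bp, 2 of 5 had one. The 28 other pathway genes gave 12 with the stronger part of the list and 3 of 7 among such isolated genes, and all protein-coding genes 16.3% and 15.4%. The stronger part of the list left 10 entries in the regions, 4 of them nearest to a neighbour's start site and 9 matched in all replicates. The gene bodies alone held 11, 4 and 10. With a flank of 10 kb, 19 of 29 entries were nearest to a neighbour's start site. The median rank of the strongest entries was 1468 in the list of replicate 1, against 2301.5 in the pooled list. A motif was in 11 of the 20 whole entries, against 61.1% of all IDR entries, in 7 of 20 windows of 100 bp on either side, against 41.3%, and in 5 of 20 of the windows used above, against 22.3%.

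Leaving out each replicate, by keeping the IDR entries matched in both others, gave 6 genes at own start sites, 7 in the wider window, 16 to 19 entries, 7 to 10 of them nearest to a neighbour's start site, 15 to 16 other pathway genes and 22.3% to 22.9% of all genes. The entries kept in this way still came from the pooled list of all 3 replicates. No paired analysis was possible because there is 1 group. With no read counts, the depth limits of single entries cannot be given, and absence from a list is not absence of binding.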
